A study of Mus musculus with 12 samples.

Results

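The antisense RNAs detected in mouse B lymphocytes were examined, before and after stimulation of the receptor STING. Members were selected on measured values: they were the genes of biotype antisense whose raw counts, summed over 12 libraries, came to at least 1000. Genes named Gas5 or Snhg would have been left out, but 0 antisense genes of those names reached the minimum. The rule kept 74 of the 54532 genes in the deposited table, and 74 of the 2826 antisense genes, of which 1527 had at least 1 count. An antisense gene is annotated on the strand opposite another gene, and its transcript is usually spliced, polyadenylated and without a recognised protein. Such RNAs can start beside the promoter of the coding gene and run away from it or across it, can meet it at its end, or can lie within its introns. Some, such as Kcnq1ot1, are known to silence neighbouring genes in cis, while for most no role is known.

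B lymphocytes had been sorted from 3 wild type mice and from 3 mice labelled Tmem173-/-. Tmem173 encodes STING, the sensor that binds cyclic dinucleotides and starts type I interferon and NF-kappa B signalling. Cells of both genotypes were seeded in plates and kept as controls or given 3'3'-cGAMP, a bacterial cyclic dinucleotide, for 12 hours. Each genotype thus had a control group and a cGAMP group of 3 libraries, made from poly-A RNA, and what the controls received is not stated. The labels give neither the age of the mice nor the kind of allele. They do not say whether the control and cGAMP libraries that carry one number came from one mouse, and with 3 mice per genotype the 6 libraries of a genotype cannot all be from different animals. The p values therefore measure the spread between libraries, part of which may be technical.

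Library totals ranged from 26490593 to 31417833 assigned counts. Tmem173 RNA itself was not lower in the Tmem173-/- libraries: wild type controls had 91.2, 102 and 92.7 CPM (counts scaled to library size, per 1e6 counts) and Tmem173-/- controls 80.2, 94.7 and 103 CPM. The level of this RNA thus does not show the genotype, which is taken from the labels. Responses of both genotypes to cGAMP are given below. The wild type cGAMP libraries had 44.7, 49.2 and 48 CPM, and the Tmem173-/- cGAMP libraries 82.9, 101 and 95.9 CPM. All 9 B cell markers examined were expressed, and their summed level was 4944 to 6090 CPM in wild type controls and 3416 to 4174 CPM after cGAMP, with 2 markers higher and 7 lower. The monocyte and macrophage markers summed to 34.4 to 47.1 CPM in wild type controls and to 10.9 to 19.9 CPM after cGAMP, with 2 of 7 lower. The dendritic cell markers summed to 15.1 to 19.9 and to 37.3 to 45.9 CPM, with 2 of 5 higher, and the T cell markers to 206 to 211 and to 123 to 154 CPM, with 1 of 9 lower. NK cell markers to at most 2.68 CPM, and neutrophil markers to at most 22.3 CPM, with Ly6g at 0 counts in every library. Whether these other cells had a part in the antisense results was not tested. In bulk RNA, fewer cells of a type and less RNA per cell cannot be told apart.

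The 74 antisense RNAs were rare transcripts. Together they took 0.0893% of all counts, and 0.0752% to 0.106% of the counts of a single library. Their summed counts ran from 1011 (Gm44199) to 65435 (A530040E14Rik), with a median of 2088, and 8 members held over 50% of the members' counts. The deposited FPKM are fragments scaled to library depth and to a length for each gene. For 33 members the length implied by count and FPKM was shorter than the deposited gene length, down to 14.3% of it. Rankings by FPKM depend on these lengths, whose source is not known. On this scale the mean ran from 0.0629 for Kcnq1ot1 to 151 for A530040E14Rik, with a median of 4.82. After A530040E14Rik, the highest were Tug1 at 40.6, Gm15848 at 25.4, Gt(ROSA)26Sor at 24.2, BC051226 at 23.6 and Gm17201 at 19.3 FPKM. The summed level of the members overlapped between the groups. It was 771 to 950 CPM in wild type controls, 895 to 1035 CPM in wild type cGAMP libraries, 786 to 948 CPM in Tmem173-/- controls and 812 to 942 CPM in Tmem173-/- cGAMP libraries. A gene abundant in a single group could have passed the minimum through that group. A summed count of 250, the share of the minimum due to a group, was reached in each of the 4 groups by 63 members, and by 69 members in wild type controls, 68 in wild type cGAMP libraries and 73 in either Tmem173-/- group. Short of it in wild type cGAMP libraries were Gm45606, Gm11998, Gm16341, Gm13919, C130013H08Rik and 9130221H12Rik. Below, all of these but the last are called lower in wild type cells. Short of it in wild type controls were Gm12735, Gm44777, AC174678.1, Gm44199 and Gm45552. Of these, Gm44199 and Gm45552 are not called and the others are called higher. For these called members the selection and the call are not independent. All 74 passed the filter on low counts of the fit.

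By the deposited coordinates (GRCm38), 67 of the 74 overlapped a protein coding gene on the opposite strand, here called the partner. Of these, 26 lay inside the partner, 23 overlapped it head to head, 17 tail to tail, and 1, Brip1os, spanned its partner Ints2. A further 3 began within 1000 bases of an opposite-strand coding gene and ran away from it: Gm16094 beside Sp110, BC051226 beside Daxx and 2810001G20Rik beside Cox10. The other 4 overlapped no opposite-strand coding gene. Gm12735 lay within Drg1 on the same strand, AC113595.1 overlapped part of Apobec3 on the same strand, Gm11998 overlapped no coding gene, and 2010309G21Rik ran opposite to immunoglobulin lambda gene segments. In all, 20 members started within 1000 bases of an opposite-strand coding start. Members had a median of 2268 exonic bases, and 17 had a single exon. By deposited FPKM, 23 members were at a higher mean than their partner and 26 at under 10% of it, with a median of 19.3%. These shares also depend on the lengths used for FPKM.

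How the reads were assigned bears on every value. The library protocol named no step that marks the strand, and the setting of the counting program is not given in the sources used here. Among antisense genes whose partner had at least 1000 counts, those with all exonic bases in partner exons had 0 counts in 43 of 43 cases. Where over 75% but not all of the bases were shared, 23 of 48 were at 0, and the median summed count was 1.5, against a median of 64 among the 413 antisense genes that shared over 0 and up to 25%. Counts did not simply fall with sharing: the 431 antisense genes that shared no base with partner exons had a median of 10, and 67 of them were at 0. Members shared a median of 8.65% of their exonic bases with other genes, 17 shared none, and the highest share was 67.1%. Without strand, reads of an antisense RNA outside the partner's exons cannot be told apart from reads of unspliced or extended transcripts of its partner.

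**Figure D1:**
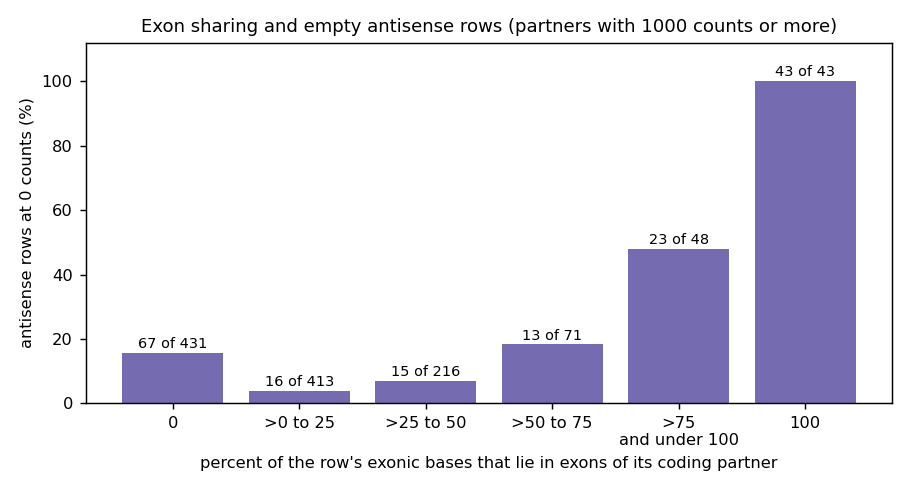
Percent of antisense genes with 0 counts in all 12 libraries (bars, with the numbers of genes above them) by the percent of their exonic bases that lie in exons of the coding partner, for partners with at least 1000 counts. The share at 0 reached 43 of 43 where every base was shared.

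Wild type cells answered cGAMP with changes in both directions among the antisense RNAs. In edgeR's quasi-likelihood test with an adjusted p under 0.05 as threshold, 13 of the 74 rose, 16 fell and 45 did not pass. The largest rise was of Gm17017, opposite Sp140, and the largest fall of Gm45606, opposite Slc43a2. The share called was 39.2% of the members, beside 47.8% of all 14473 genes tested (22.4% higher and 25.4% lower). It was 52.7% among coding genes, 53% among the 115 long intergenic RNAs with as many counts, and 21.2% among the 410 tested antisense genes below the count minimum. The members' median log2 fold change was 0.02, with a range from −2.35 to 1.78, and 14 of the 74 were called with a change of at least 2-fold, beside 1982 of the 14473 genes. The 3 libraries of one group lay apart from the 3 of the other for 32 members, beside 54.4% of all genes. Of the 29 calls, 19 held in each of 21 alternative analyses, and all 29 kept their sign. By position, 9 of 23 head-to-head members, 7 of 26 inside a partner, 7 of 17 tail-to-tail members and 3 of 3 divergent neighbours were called. So were 75% of the 4 members without an opposite-strand coding gene, while the 1 spanning member was not. Called were 52.9% of the 17 members that shared no exonic base with another gene and 35.1% of the 57 that shared some.

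**Figure D2:**
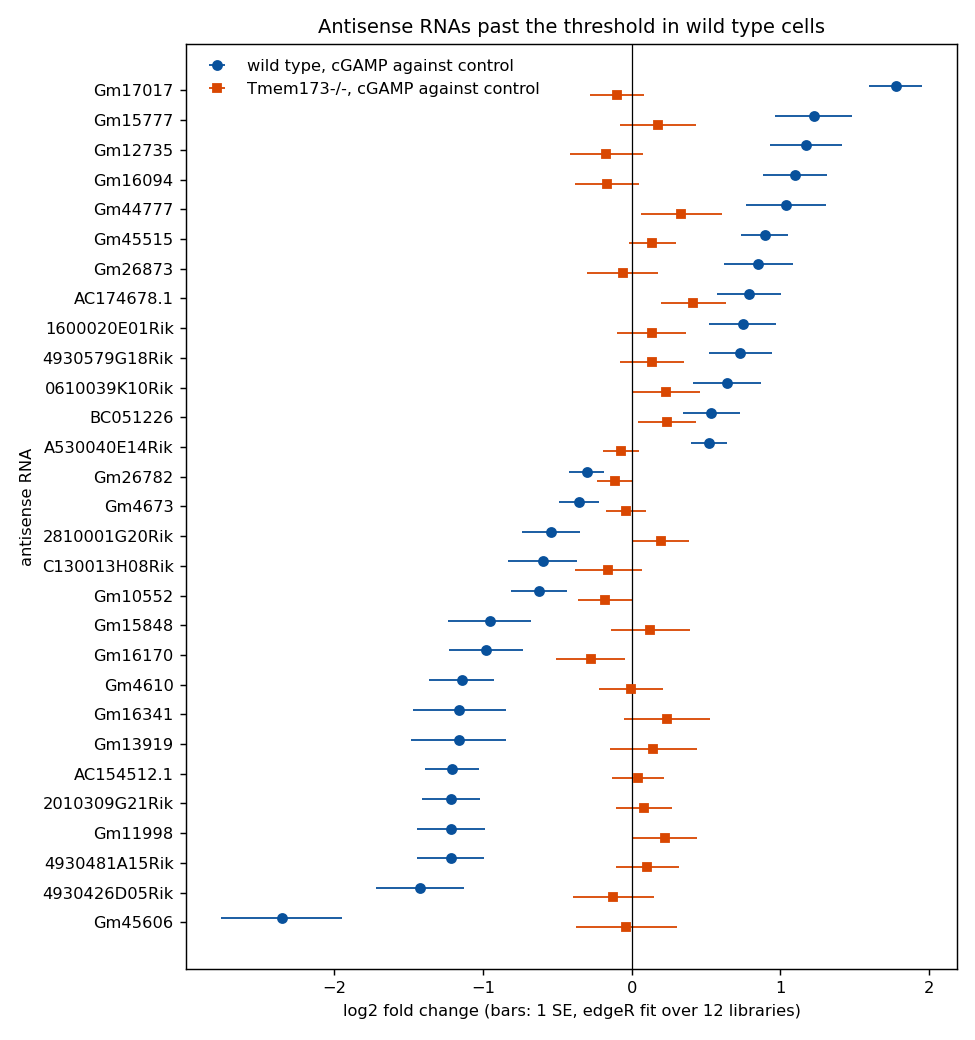
Log2 fold change between cGAMP and control libraries (horizontal axis, bars of 1 SE) of the 29 antisense RNAs past the threshold in wild type cells, in wild type (circles) and Tmem173-/- cells (squares). Wild type values run from −2.35 to 1.78, and Tmem173-/- values from −0.28 to 0.41.

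The member that rose most, Gm17017, lies at the Sp110 and Sp140 genes on chromosome 1, and 3 further called members of this neighbourhood are described with it. Sp110 and Sp140 are nuclear-body proteins of the SP100 family, known as interferon-induced chromatin readers. Gm17017 (1:85641222-85650585, minus strand) meets Sp140 tail to tail, and 877 of its 2405 exonic bases lie in exons of Sp140. How far reads of Sp140 enter the values of Gm17017 was not tested. Gm17017 was at 5.77, 7.92 and 5.72 CPM in the wild type control libraries and at 23.8, 24.6 and 18.2 CPM after cGAMP. In Tmem173-/- libraries it was at 6.02, 8.16 and 7.01 CPM without and at 5.25, 7.22 and 7.27 CPM with cGAMP. The wild type cGAMP libraries thus stood above the other 9, and the log2 fold change was 1.78 ± 0.18 (SE, adjusted p = 7.98e-07). Sp140 was at 344, 352 and 371 CPM in the wild type control libraries and at 662, 765 and 734 CPM after cGAMP, a change of 1.02 ± 0.09. Its antisense RNA rose by more, with a ratio change of 0.76 ± 0.21 on the log2 scale (adjusted p = 0.0223), a call that held in 5 of 10 alternatives and was lost without wild type control library 1 or 3 or wild type cGAMP library 1 or 2 (adjusted p up to 0.171).

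Gm16094 (1:85599286-85599839, plus strand) starts 469 bases from the 5′ end of Sp110 and points away from it, toward Sp140. Its values were 3.24, 4.12 and 3.32 CPM in wild type controls, 6.48, 8.75 and 7.62 CPM after cGAMP, and 3.57 to 6.09 CPM in the 6 Tmem173-/- libraries. No Tmem173-/- library reached the lowest wild type cGAMP library. Its log2 fold change was 1.10 ± 0.22 (adjusted p = 0.000565), next to 1.02 ± 0.09 for Sp110, which went from 348, 370 and 347 to 688, 779 and 701 CPM. Gm10552 (1:85604085-85611896, minus strand) lies inside Sp140 and moved the other way. It was at 10.6, 11.6 and 10.1 CPM in the wild type control libraries and at 5.42, 8.61 and 6.94 CPM after cGAMP, with no overlap. The log2 fold change was −0.62 ± 0.19 (adjusted p = 0.0115), and without wild type cGAMP library 1 it was −0.48 (adjusted p = 0.06). Relative to Sp140 it fell by 1.66 ± 0.20 (adjusted p = 6.39e-07), and this ratio was past the threshold in all 10 alternatives. The 6 Tmem173-/- libraries had 8.34 to 13.3 CPM of Gm10552, overlapping the wild type cGAMP libraries. In edgeR the difference between the responses of the genotypes did not pass for Gm10552 (−0.45 ± 0.26, adjusted p = 0.212). A530040E14Rik (1:85105946-85114035, plus strand), the most abundant member, lies inside C130026I21Rik in the same family cluster. It was at 156, 188 and 179 CPM in the wild type control libraries and at 232, 260 and 256 CPM after cGAMP, while the Tmem173-/- libraries spanned 133 to 196 CPM. The change was 0.52 ± 0.12 (adjusted p = 0.00204). C130026I21Rik, at 21.7 to 46.5 and at 36.3 to 68.0 CPM, overlapped between groups (0.55 ± 0.39, adjusted p = 0.291).

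**Figure D3:**
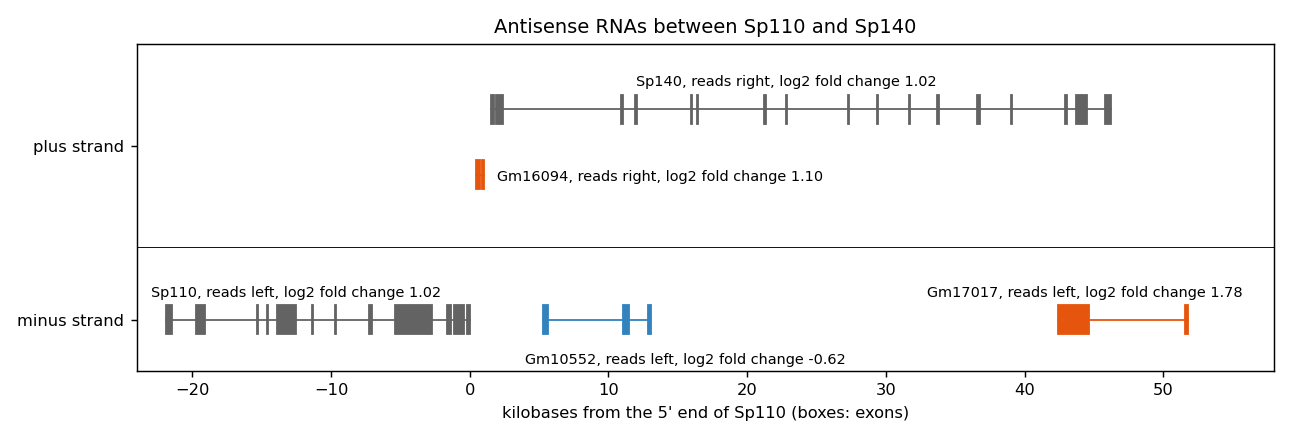
Exons (boxes) of Sp110, Sp140 and 3 antisense RNAs on the plus and minus strand, in kilobases from the 5′ end of Sp110, with the wild type log2 fold change of each gene. Orange marks antisense RNAs that were higher after cGAMP, at 1.10 and 1.78, and blue the one that was lower, at −0.62.

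Sequence copies limit the values of 3 of these RNAs. Over all 74 members, 45 had no 50-base stretch in common with a GENCODE transcript of a gene that does not overlap them, and only Gm17017 (59.8% of its stretches), Gm10552 (48.5%) and A530040E14Rik (36.5%) shared more than 10%. Gm17017 shared 47.6% with Gm16092, a long intergenic RNA at 1:85511133-85527161 on the minus strand, and Gm10552 shared 48.2% with A530040E14Rik. The sequences below show how far the copies coincide, with the identical run in capitals. The first pair is the last part of a run of 405 bases shared by Gm17017 and Gm16092, together with the bases after it. Of the bases printed after the run, only the first differs between the copies, so the likeness goes on beyond the run. The second pair is the start of a run of 372 bases that A530040E14Rik and Gm10552 share. The run is the whole of the annotated Gm10552 transcript compared, so bases before it are printed for A530040E14Rik only.
Gm17017: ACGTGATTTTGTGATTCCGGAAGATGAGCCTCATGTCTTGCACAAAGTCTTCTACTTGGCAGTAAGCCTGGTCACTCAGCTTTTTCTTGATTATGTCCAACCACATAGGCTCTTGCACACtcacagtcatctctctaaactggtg
Gm16092: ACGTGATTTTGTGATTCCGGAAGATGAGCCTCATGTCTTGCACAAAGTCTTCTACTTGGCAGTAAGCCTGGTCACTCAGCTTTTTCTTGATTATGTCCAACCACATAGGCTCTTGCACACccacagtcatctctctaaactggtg
A530040E14Rik: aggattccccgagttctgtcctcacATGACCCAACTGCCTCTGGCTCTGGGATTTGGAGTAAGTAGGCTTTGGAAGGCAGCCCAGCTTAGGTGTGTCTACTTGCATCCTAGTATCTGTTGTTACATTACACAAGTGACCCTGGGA
Gm10552: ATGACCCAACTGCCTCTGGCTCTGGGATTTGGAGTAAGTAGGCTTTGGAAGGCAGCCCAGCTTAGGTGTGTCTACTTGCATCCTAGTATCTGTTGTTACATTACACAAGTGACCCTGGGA
Reads from these runs fit both copies, and how such reads were assigned is not given in the sources used here, so the split between copies is uncertain. Gm16092 had 225 counts in all. It was at 0.178, 0.387 and 0.671 CPM in the wild type control libraries and at 0.801, 2.17 and 1.14 CPM after cGAMP, with no overlap but without passing the test (1.72 ± 0.73, adjusted p = 0.0639). A530040E14Rik and Gm10552 changed in opposite directions, and how far shared reads enter either value was not tested. Gm16094 had no stretch elsewhere. The first 150 bases of Gm16094 (1:85599286-85599435, plus strand), which no other annotated exon covers, are given as the RNA of the cluster without a copy.
Gm16094: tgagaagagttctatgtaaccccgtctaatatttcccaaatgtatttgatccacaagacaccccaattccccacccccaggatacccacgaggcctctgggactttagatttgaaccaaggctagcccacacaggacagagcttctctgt

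Outside that cluster, 10 members rose. Gm15777 overlaps head to head with Coq2, which encodes a prenyltransferase of coenzyme Q synthesis. It was at 3.42, 5.95 and 3.29 CPM in the wild type control libraries and at 7.21, 11.3 and 11.1 CPM after cGAMP, above all controls (1.22 ± 0.26, adjusted p = 0.00117). Coq2 rose by 0.54 ± 0.09, from 63.9 to 72.2 CPM up to 91.4 to 108 CPM. Gm12735, within Drg1 on the same strand and so without a partner, was at 1.75, 3.41 and 2.12 CPM in the wild type control libraries and at 5.13, 5.82 and 5.48 CPM after cGAMP (1.17 ± 0.24, adjusted p = 0.000871). The 6 Tmem173-/- libraries lay between 2.35 and 3.69 CPM. Drg1 itself was at 119 to 163 and at 122 to 126 CPM (adjusted p = 0.277). Gm44777, at the end of Pik3c2a, a class II phosphoinositide 3-kinase, was at 1.48 to 3.70 and at 4.59 to 5.89 CPM (1.04 ± 0.27). Of its 4379 exonic bases, 1369 lie in exons of Pik3c2a. Its Tmem173-/- libraries were at 2.18 to 2.81 CPM without and at 2.94 to 3.23 CPM with cGAMP, also without overlap. Gm45515, inside Swap70, which encodes a B cell protein acting on Rac, was at 18.7, 21.6 and 13.1 CPM in the wild type control libraries and at 33.6, 34.4 and 31.3 CPM after cGAMP (0.89 ± 0.16, adjusted p = 0.000235). Swap70 rose by 0.52 ± 0.09.

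Smaller rises were those of Gm26873 at Lix1, itself too low to be tested (0.85 ± 0.23), of AC174678.1 at Tm9sf1 (0.79 ± 0.22) and of 4930579G18Rik inside Acin1, a gene for a splicing-associated protein (0.73 ± 0.21). All 3 had cGAMP libraries above the wild type controls, as the rule for naming them requires. Tm9sf1 rose by 0.28 ± 0.07 and Acin1 by 0.53 ± 0.10. The other 3 calls rested on single libraries. 1600020E01Rik, which starts 74 bases from the start of Pcbp1, a gene for an RNA-binding protein, was at 9.86 to 18.6 and at 20.3 to 27.2 CPM (0.75 ± 0.23, adjusted p = 0.0142), and missed the threshold without wild type control library 1 or 3 or wild type cGAMP library 2 (adjusted p = 0.0512, 0.0588 and 0.0591). Pcbp1 was at 326 to 398 and at 341 to 402 CPM. 0610039K10Rik, head to head with the membrane protein gene Serinc3, was at 3.60 to 5.77 and at 6.08 to 8.44 CPM (0.64 ± 0.23, adjusted p = 0.0292), and missed it without wild type control library 1 or 3 or wild type cGAMP library 3 (0.12, 0.0941 and 0.146). BC051226 is treated with its promoter below.

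The falling members were led by Gm45606 (11:75530277-75533071, minus strand), which starts 1377 bases inside Slc43a2 and runs back across its start. Slc43a2 encodes a transporter of large neutral amino acids. Of the 2795 exonic bases of Gm45606, 922 lie in exons of Slc43a2. Gm45606 was at 2.49, 4.72 and 2.79 CPM in the wild type control libraries and at 0.801, 0.895 and 0.249 CPM after cGAMP. Its raw counts after cGAMP were 22, 26 and 7, so it reached the count minimum through the other groups. Its Tmem173-/- libraries lay between 3.14 and 6.64 CPM, all above the wild type cGAMP libraries. The log2 fold change was −2.35 ± 0.41 (adjusted p = 0.000207). Slc43a2 fell too, from 36.5, 40.5 and 34.5 to 20.0, 19.7 and 19.3 CPM, but by less: the ratio changed by −1.43 ± 0.33 (adjusted p = 0.00661, and 0.0748 without wild type cGAMP library 3). A part of Gm45606 that no other annotated exon covers borders the deposited start of Slc43a2. The 150 bases next to that start (11:75531544-75531693, minus strand) lie on the promoter side of Slc43a2 and are read in the sense of the antisense RNA.
Gm45606: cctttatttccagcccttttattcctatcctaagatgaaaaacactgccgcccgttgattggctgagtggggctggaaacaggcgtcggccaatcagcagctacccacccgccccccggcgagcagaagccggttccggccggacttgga

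4930426D05Rik, head to head with Klhl14, a Kelch family gene expressed in B cells, was at 9.72, 15.1 and 8.59 CPM in the wild type control libraries and at 2.29, 5.16 and 4.95 CPM after cGAMP (−1.43 ± 0.29, adjusted p = 0.00135). Klhl14 fell by more, from 11.4, 16.5 and 12.0 to 2.11, 3.48 and 2.63 CPM (−2.27 ± 0.21). The ratio rose by 0.80 ± 0.21 (adjusted p = 0.0124), which was lost without wild type control library 3 or wild type cGAMP library 3 (adjusted p up to 0.0978). 4930481A15Rik, at the end of Drap1, a gene for a general repressor of transcription, was at 7.37, 11.1 and 10.7 CPM in the wild type control libraries and at 3.13, 5.58 and 3.77 CPM after cGAMP (−1.22 ± 0.23, adjusted p = 0.000368). Drap1 was at 146 to 200 and at 141 to 167 CPM (−0.14 ± 0.13, adjusted p = 0.409), and the ratio change of −1.10 ± 0.25 was past the threshold in all 10 alternatives. Gm4610, inside Bcar3, which encodes an adaptor of Cas signalling, was at 8.01, 8.94 and 11.8 CPM in the wild type control libraries and at 4.30, 5.58 and 3.13 CPM after cGAMP (−1.14 ± 0.22, adjusted p = 0.000474). Bcar3 was at 138 to 154 and at 126 to 155 CPM. The ratio change was −1.08 ± 0.24 (adjusted p = 0.00545, and 0.0718 without wild type cGAMP library 3).

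2010309G21Rik (16:19051367-19106749, plus strand) runs opposite to lambda light chain segments, the light chain used by a minority of mouse B cells. It was at 6.80, 8.62 and 9.75 CPM in the wild type control libraries and at 2.73, 4.61 and 3.49 CPM after cGAMP. All 6 Tmem173-/- libraries lay between 7.03 and 9.32 CPM, above each wild type cGAMP library. The change was −1.21 ± 0.20 (adjusted p = 9.71e-05). Of the segments on the other strand, Iglc3 went from 138, 172 and 179 to 69.4, 94.0 and 70.9 CPM (−1.06 ± 0.12, adjusted p = 2.91e-06) and Iglc1 from 119 to 153 down to 82.8 to 122 CPM (−0.50 ± 0.16, adjusted p = 0.0216). Iglv1 was at 108 to 140 and at 89.7 to 120 CPM (adjusted p = 0.21). The first 150 bases of 2010309G21Rik (16:19051367-19051516, plus strand) are covered by no other annotated exon and are shown as a part that the lambda segments do not share.
2010309G21Rik: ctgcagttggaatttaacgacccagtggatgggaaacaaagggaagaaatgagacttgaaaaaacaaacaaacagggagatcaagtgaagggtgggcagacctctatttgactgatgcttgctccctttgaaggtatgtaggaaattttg

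Gm11998, which overlaps no coding gene, was at 3.63, 5.28 and 5.37 CPM in the wild type control libraries and at 2.22, 1.96 and 1.96 CPM after cGAMP (−1.22 ± 0.23, adjusted p = 0.000356). AC154512.1, inside the barely expressed secreted peptide gene Ostn, was at 7.48, 8.09 and 9.75 CPM and at 3.57, 3.31 and 4.06 CPM (−1.21 ± 0.18, adjusted p = 4.9e-05). In both the groups lay apart, as the rule for naming them requires. Gm16341 at Armc9, a gene of cilia, changed by −1.16 ± 0.31, and Armc9 by −0.51 ± 0.17. Gm16170 at Trim7, a ubiquitin ligase gene, changed by −0.98 ± 0.25, and Trim7 by −1.31 ± 0.16, from 42.4, 53.4 and 38.2 to 15.9, 19.8 and 18.3 CPM. Gm16170 did not pass on the log2(FPKM + 1) scale (adjusted p = 0.0633). Gm15848, at the end of Fcamr, which encodes an Fc receptor for IgA and IgM, was at 12.6, 21.3 and 12.0 CPM in the wild type control libraries and at 6.12, 10.2 and 7.37 CPM after cGAMP (−0.95 ± 0.28, adjusted p = 0.0131). Without wild type control library 2 or wild type cGAMP library 1 the adjusted p was 0.0539 or 0.0531, respectively. Fcamr, at 14.4 to 37.2 and at 10.6 to 16.7 CPM, did not pass (−0.89 ± 0.40, adjusted p = 0.0952).

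The remaining 5 falling members had small changes or overlapping libraries. C130013H08Rik at Prmt6, an arginine methyltransferase gene, was at 3.27 to 4.03 and at 1.58 to 3.02 CPM (−0.60 ± 0.23, adjusted p = 0.0438), and held in 7 of 21 alternatives. It missed the threshold on leaving out any of 9 single libraries: wild type control 1 or 3, wild type cGAMP 2 or 3, any Tmem173-/- control, or Tmem173-/- cGAMP 2 or 3. Its adjusted p was highest, at 0.173, without wild type cGAMP library 2. Gm13919, 2810001G20Rik, Gm4673 and Gm26782 were outside the rule for named genes and are given to complete the count. Gm13919 inside Ldlrad3 changed by −1.16 ± 0.32, with overlapping libraries. 2810001G20Rik changed by −0.55 ± 0.19, Gm4673 at Lsr by −0.35 ± 0.13 and Gm26782 at Tep1 by −0.30 ± 0.12, and these 3 held in 16, 12 and 4 of 21 alternatives, with adjusted p values of up to 0.108, 0.161 and 0.205. For 2810001G20Rik the call was lost without wild type control library 2 or 3 or wild type cGAMP library 1 or 3. For Gm4673 it was lost without wild type control library 1 or 2, wild type cGAMP library 3 or Tmem173-/- control library 2. For Gm26782 it was kept only without wild type control library 1 or wild type cGAMP library 2 among the left-out libraries. 2810001G20Rik starts 16 bases from Cox10, a gene of cytochrome oxidase assembly, which was at 22.2 to 30.0 and at 26.9 to 34.2 CPM (adjusted p = 0.105).

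**Figure D4:**
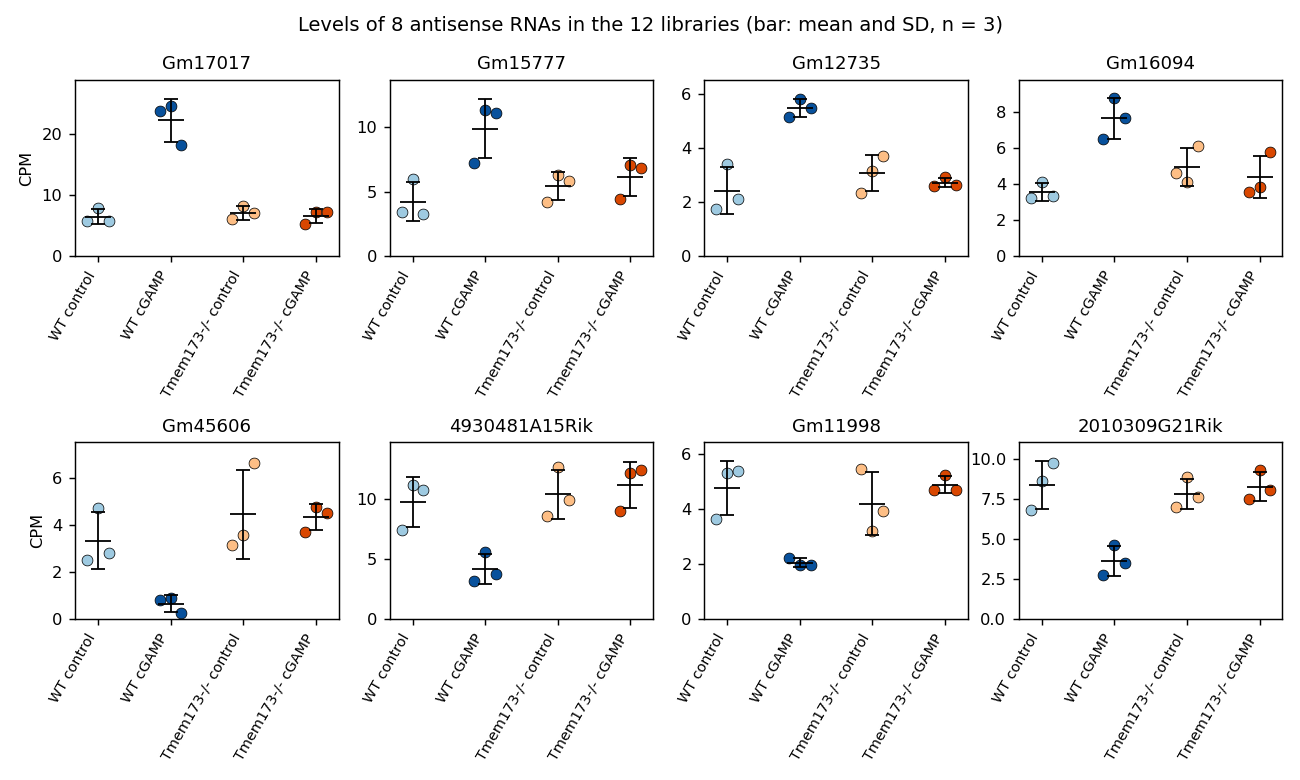
CPM (vertical axes, from 0) of 4 rising and 4 falling antisense RNAs in each library, with mean and SD of 3 libraries per group. Gm17017 lies between 18.2 and 24.6 CPM in wild type cGAMP libraries and between 5.25 and 8.16 CPM in the other 9, and Gm45606 is at most at 0.895 CPM in wild type cGAMP libraries and at least at 2.49 CPM in the other 9.

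Set beside their partners, the antisense RNAs moved with the coding gene in some pairs and apart from it in others. There were 60 pairs in which the partner was expressed enough to be tested, with 59 different partners, since Gm17017 and Gm10552 share Sp140. The partners themselves were called in 31 of 59 cases, 16 higher and 15 lower, which is 52.5% beside 52.7% of all coding genes. In 6 pairs both rose, at Sp140 (Gm17017), Coq2, Swap70, Pik3c2a, Acin1 and Tm9sf1. In 4 pairs both fell, at Armc9, Trim7, Slc43a2 and Klhl14. Opposite calls occurred in 2 pairs: Gm10552 fell while Sp140 rose, and 0610039K10Rik rose while Serinc3 fell (−0.31 ± 0.10). The antisense RNA alone passed in 10 pairs, the partner alone in 20, and neither in 18. The signs of the log2 fold changes were equal in 41 of 60 pairs, and across the pairs Pearson's r was 0.56 and Spearman's rho 0.47. These describe pairs measured in the same libraries, whose reads may be exchanged, and carry no test. Among the 67 interferon-stimulated genes listed for this work, 3 were a partner or divergent neighbour of a member: Sp140, Sp110 and Daxx.

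The ratio of antisense RNA to partner was tested directly in limma over the 423 antisense and partner pairs of the whole table, of which 8.51% passed. Of the 60 member pairs 16 passed, 11 with a fall and 5 with a rise relative to the partner. The other pairs are of antisense genes below the count minimum. In edgeR such genes were also called less often, at 21.2% beside 39.2% of the members. Whether depth accounts for the difference between the shares was not tested. The count of member pairs was 8 without wild type control library 3 and 7 without wild type cGAMP library 3. Of the 16 pairs, 5 passed in each of the 10 alternatives. In 8 of the 16 only the partner had been called. The largest of these was Gm11131, head to head with H2-Q4, a class Ib histocompatibility gene. Gm11131 was at 11.4, 10.6 and 10.1 CPM in the wild type control libraries and at 13.7, 12.9 and 11.7 CPM after cGAMP (0.26 ± 0.12, adjusted p = 0.0769), while H2-Q4 went from 138, 152 and 116 to 423, 407 and 382 CPM (1.58 ± 0.11). The ratio changed by −1.33 ± 0.18 (adjusted p = 3.89e-06). Gm37305 at Ccnl1, a cyclin gene of splicing, was at 5.88 to 6.65 and at 4.74 to 5.96 CPM while Ccnl1 rose by 0.74 ± 0.17, a ratio change of −0.97 ± 0.22 (adjusted p = 0.00545).

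Tug1, a conserved and abundant long RNA, starts 179 bases from Morc2a, which encodes an ATPase of gene silencing. Tug1 was at 107, 122 and 113 CPM in the wild type control libraries and at 121, 129 and 129 CPM after cGAMP (0.15 ± 0.08, adjusted p = 0.134), and Morc2a went from 57.2, 52.5 and 48.2 to 89.1, 82.8 and 82.9 CPM (0.69 ± 0.09). The ratio changed by −0.54 ± 0.11 (adjusted p = 0.00239). Gm11131, Gm37305 and Tug1 passed in all 10 alternatives. Brip1os, 1700052K11Rik and Zbtb11os1 likewise did not pass while Ints2, Tlk2 and Zbtb11 rose by 0.59, 0.51 and 0.59, and their ratios passed in fewer alternatives (8, 3 and 6 of 10). In the other direction, Gm44199 inside Brk1, a subunit gene of the actin-regulating WAVE complex, was at 2.16 to 2.78 and at 3.37 to 3.56 CPM (0.44 ± 0.21, adjusted p = 0.0956). Brk1 fell by 0.66 ± 0.10, and the ratio rose by 1.09 ± 0.26 (adjusted p = 0.00854, and 0.0642 without wild type control library 3). For 0610039K10Rik and Serinc3 the ratio rose by 0.95 ± 0.24 (adjusted p = 0.0112), and missed the threshold without wild type control library 3 or wild type cGAMP library 3.

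**Figure D5:**
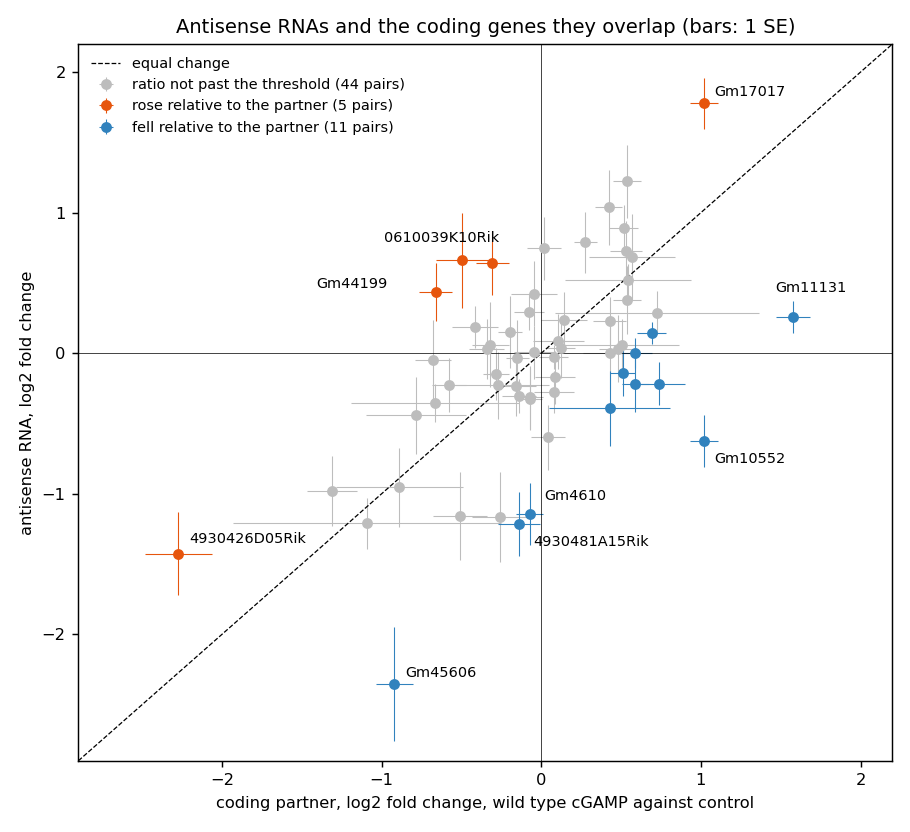
Log2 fold change between wild type cGAMP and control libraries of each antisense RNA (vertical axis) and of its coding partner (horizontal axis) for 60 pairs, with bars of 1 SE and a dashed line of equal change. The 5 pairs in orange rose and the 11 in blue fell relative to the partner at an adjusted p under 0.05.

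Cells labelled Tmem173-/- gave no call. Between their cGAMP and control libraries 0 of the 74 members passed in edgeR, beside 0% of all genes, 0 members had an unadjusted p under 0.05, and DESeq2 called 0 as well. The members' log2 fold changes there lay between −0.37 and 0.41. Direct tests of the difference between the responses passed for 17 members, 7 with the wild type response above and 10 with it below, which is 23% of the members beside 31.6% of all genes (14.1% above and 17.5% below). The count was 11 on the log2(FPKM + 1) and log2(FPKM + 0.1) scales, and 10 of the 17 passed in each of 21 alternatives. The smallest adjusted p values of the difference were those of Gm17017 (1.88 ± 0.25, adjusted p = 4.88e-05), AC154512.1 (−1.25 ± 0.25, 0.00142), 2010309G21Rik (−1.30 ± 0.27, 0.00183) and Gm11998 (−1.44 ± 0.31, 0.00247). In these 4 the Tmem173-/- change was −0.10, 0.04, 0.08 and 0.22.

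The controls of the genotypes gave no call either. Between Tmem173-/- and wild type controls 0 members passed in edgeR, beside 0% of all genes, 8 of 74 members had an unadjusted p under 0.05 beside 921 of the 14473 genes, and DESeq2 called 0 members. Between the cGAMP groups, 28 members differed, 37.8% of the members beside 48.3% of all genes. Of these, 16 were higher in Tmem173-/- cells (24.9% of all genes) and 12 lower (23.5%). This comparison and the wild type comparison share the wild type cGAMP libraries. The members with the smallest adjusted p were Gm17017 (−1.75, adjusted p = 8.03e-07), Gm45606 (2.73, 4.43e-05), 4930481A15Rik (1.42, 8.37e-05) and 2010309G21Rik (1.20, 9.96e-05), and in the wild type comparison they changed by 1.78, −2.35, −1.22 and −1.21.

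Some well known or abundant antisense RNAs did not pass the test. Kcnq1ot1, taken up for its textbook role after its values were seen, the imprinted RNA that silences neighbours of Kcnq1, was at 5.81, 4.93 and 3.85 CPM in the wild type control libraries and at 7.94, 6.30 and 5.70 CPM after cGAMP, with overlap between the groups (0.45 ± 0.19, adjusted p = 0.0667). Kcnq1 itself was too low to be tested. Gt(ROSA)26Sor, the RNA of the locus used for inserting transgenes, was at 15.9, 16.5 and 17.5 CPM and at 19.1, 23.0 and 19.0 CPM, without overlap (0.29 ± 0.13, adjusted p = 0.0732). Gm17201, inside Ankrd52, shared 59.5% of its exonic bases with other genes and changed by 0.23 ± 0.17 (adjusted p = 0.307). At the edge of the minimum, Gm44199 and 4732440D04Rik passed with 1011 and 1058 counts, while 4930570N18Rik and 1700058P15Rik were left out with 997 and 988.

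Promoter windows, 250 bases before to 50 after a start, were available from RefSeq (GRCm38.p6) for 33 of the 74 members. The motifs searched, on both strands, were the core of the interferon-stimulated response element (GAAANNGAAA), the gamma-activated site (TTCNNNGAA) and the kappa B site. They occurred in 3.44%, 8.30% and 8.46% of all 32851 windows of that length. Among the 33 members, 1 held the first (Rab10os), 1 the second (Rab10os) and 4 the kappa B site (1700052K11Rik, Zbtb11os1, Gm15545 and 1700008J07Rik). None of the windows of 6 members called higher or 7 called lower held any of these letters. The RefSeq start lies 15300 bases downstream of the deposited start for Gm26873, 6686 for Gm15848, and 1083 and 1154 for the 2 windows of 1600020E01Rik, so those windows do not cover the deposited starts.

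BC051226 shares its promoter region with Daxx, a repressor and histone chaperone known to be induced by interferon. BC051226 was at 8.66, 13.6 and 17.0 CPM in the wild type control libraries and at 16.5, 22.2 and 18.2 CPM after cGAMP. The groups overlapped, and the Tmem173-/- libraries lay between 9.19 and 13.7 CPM. The log2 fold change was 0.53 ± 0.19 (adjusted p = 0.0316). It missed the threshold without wild type control library 1 or 2 or wild type cGAMP library 2 or 3 (0.141, 0.057, 0.14 and 0.0584). Daxx went from 101, 115 and 126 to 269, 284 and 245 CPM (1.22 ± 0.09, adjusted p = 4.14e-08). The window of Daxx that covers both deposited starts (17:33909195-33909494, plus strand) is shown with the 96 bases between the starts in capitals. BC051226 is read leftward from the left end of the capitals and Daxx rightward from their right end, and 69.7% of the window is G or C.
Daxx and BC051226: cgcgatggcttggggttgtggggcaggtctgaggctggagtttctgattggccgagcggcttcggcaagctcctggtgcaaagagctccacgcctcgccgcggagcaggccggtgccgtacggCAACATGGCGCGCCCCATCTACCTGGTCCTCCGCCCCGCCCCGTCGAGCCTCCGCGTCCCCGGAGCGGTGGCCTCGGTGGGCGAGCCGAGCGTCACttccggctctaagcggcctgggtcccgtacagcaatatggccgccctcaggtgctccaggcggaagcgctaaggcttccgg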

How the data were processed

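RNA of 12 libraries (3 per group) had been sequenced, trimmed with fastp, aligned with STAR and counted with featureCounts on GRCm38 (mm10), per the submitters' processing notes; versions, strand and multi-mapping settings are not given in the sources used here. The authors deposited whole-number counts per gene and FPKM per gene. The length implied by count and FPKM equalled the deposited gene length for 41 of the 74 members and was shorter for 33.

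Counts were fitted over all genes in edgeR 4.0.16 (R 4.3.3; filterByExpr, TMM, robust quasi-likelihood, 4 group means; two-sided; Benjamini-Hochberg over 14473 genes, threshold 0.05). CPM are TMM-scaled. Antisense to partner ratios were differences of log2 CPM (prior count 2), tested in limma 3.58.1. Alternatives were DESeq2 1.42.0, other scalings, no filter, FPKM, replicate blocks and left-out libraries. The fits were also run on simulated counts with a common spread for all genes. That setting is simpler than these data, and no result here rests on it.

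Exons and transcripts came from GENCODE M21, where 72 of 74 members had the same ends. Named were the 12 higher and 12 lower members with the largest changes and no overlap between groups, the 6 highest in FPKM, the smallest adjusted p values of other contrasts, up to 6 ratio pairs per direction, and genes at the minimum. Members and lists were chosen with earlier results of these data known. The values of 1 ratio pair that the rule names are not reported here.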

Additional observations from a re-analysis of the deposited data

Results flagged for a closer look

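The response to cGAMP differed between wild type and Tmem173-/- cells, by the interaction term of the edgeR fit, for 17 antisense RNAs. The differences are wild type minus Tmem173-/- log2 fold changes. They were below 0 for Gm45606 (−2.32), Gm11998 (−1.44), Gm16341 (−1.40), 4930481A15Rik (−1.32), Gm13919 (−1.31), 4930426D05Rik (−1.30), 2010309G21Rik (−1.30), AC154512.1 (−1.25), Gm4610 (−1.14) and Gm15848 (−1.08). They were above 0 for A530040E14Rik (0.59), Gm45515 (0.75), Gm26873 (0.91), Gm15777 (1.05), Gm16094 (1.26), Gm12735 (1.34) and Gm17017 (1.88). Of these, 10 passed in each of 21 alternatives. Gm15848 (adjusted p = 0.0496) and Gm26873 (0.0474) each passed in 9, with values of up to 0.113 and 0.124. Gm26873 passed only without wild type control library 2 or wild type cGAMP library 1 among the left-out libraries. Gm15848 was lost without wild type control 2, wild type cGAMP 1 or 3, Tmem173-/- control 1 or 2, or Tmem173-/- cGAMP 2 or 3. Gm15777 passed in 12 (up to 0.0987) and was lost without wild type control 1 or 3, wild type cGAMP 2 or 3, Tmem173-/- control 2 or 3, or Tmem173-/- cGAMP 1. Gm13919 passed in 13 (up to 0.0849) and was lost without wild type control 2 or 3, wild type cGAMP 1 or 3, Tmem173-/- control 1 or Tmem173-/- cGAMP 2. 4930426D05Rik passed in 15 (up to 0.0712) and was lost without wild type control 2, Tmem173-/- control 1 or Tmem173-/- cGAMP 2 or 3. Gm16341 passed in 16 (up to 0.0616) and was lost without wild type control 2, wild type cGAMP 3 or Tmem173-/- cGAMP 3, and Gm45606 was lost only on the log2(FPKM + 1) scale (0.0589).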

How the results depend on the processing

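Counts of called antisense RNAs, partners and ratios stayed within 1.5 times of the reported value in 124 recomputed counts and moved beyond it in 4. These were the difference between responses, with 11 in place of 17 on both FPKM scales, where 73 members were tested and the cause was not tested, and the ratio to the partner, with 8 without wild type control library 3 and 7 without wild type cGAMP library 3 in place of 16. Leaving out 1 library at a time gave 23 to 29 members in wild type cells, 12 to 17 for the difference, 23 to 29 between the cGAMP groups, 24 to 30 partners, 7 to 20 ratios, and 0 for the Tmem173-/- response and for the controls. Without both wild type libraries of number 1, 21 members were called in wild type cells. For the members that the rule names, 836 results were recomputed in the contrasts for which each was named: 794 stayed on the same side of the threshold, 32 lost and 10 gained a call, all in the wild type contrast, and 0 called values changed sign. Called members outside the rule are not in these counts.

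With the number as a replicate block, 35 members were called in wild type cells, 20 for the difference and 31 between the cGAMP groups, and with the block nested in genotype 36 and 24. Same-numbered control and cGAMP libraries correlated in their deviations at 0.3, 0.218 and 0.083 in wild type and 0.288, 0.096 and 0.17 in Tmem173-/- cells. Among control and cGAMP libraries of one genotype, each correlated best with its own number, a hint from the data only, and the numbers were not taken to pair the libraries. The cGAMP libraries of different genotypes, which cannot share a mouse, also correlated best with their own number (0.113, 0.093 and 0.055). Same-numbered controls of different genotypes correlated at 0.079, 0.14 and −0.16. What libraries of one number share was not tested. Depth limits the members near 1000 counts, with a few CPM per library.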
